A study of Mus musculus with 469 samples.

Results

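Mouse olfactory cells sorted for the Neurog1-eGFP reporter were compared between 14 and 5 days after olfactory bulbectomy, the surgical removal of the olfactory bulb. Both groups carried the reporter on the FVB strain, were 8 weeks old, and were labelled as injured epithelium. The libraries were chosen by these labels and by a filter of 1000 genes at a value of 1 or more in the deposited table, with no use of any gene's level. The filter kept 25 of 26 libraries at 14 days and 48 of 51 at 5 days, 73 in all, which are 15.6% of the libraries of the series and 22.3% of those in it that passed the same filter. Uninjured Neurog1-eGFP epithelium of the same strain and age (46 of 61 libraries kept) is given beside them where it helps to read a value. Each library is labelled as 1 cell captured on the Fluidigm C1 system, and cells were sorted on eGFP alone. The labels name no animal and no sex, so each time point is 1 sample, cells are not replicates, and no test of the difference between days is possible.

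Neurog1 is a proneural transcription factor of the last dividing precursors of the olfactory neuron lineage, and eGFP outlasts the transcript, so the sort also holds their young neuronal progeny. In this lineage globose basal cells divide and give rise to Neurog1 and Neurod1 positive precursors, which become immature neurons rich in Gap43, an axon growth protein, and then mature neurons rich in Omp and the odorant transduction genes. Bulbectomy cuts the axons of the sensory neurons, which die, and precursors divide to replace them in the absence of their target. The pair of genes given as markers of this comparison belongs to other processes: Sass6 encodes the cartwheel protein that starts a new centriole, and Glul encodes glutamine synthetase, which joins ammonia to glutamate.

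The 25 libraries at 14 days held 131391 to 2172040 fragments, with a median of 1099227, and the 48 at 5 days held 201121 to 2139266, with a median of 1136940. The median number of genes per library was 2697 at 14 days and 2867.5 at 5 days. Levels are in CPM, a gene's signal scaled to the same total in every library, and a cell holding 10 CPM of a gene or more is called a cell in which it was found. At the median depths this is 10.99 fragments at 14 days and 11.4 at 5 days, and in the shallowest library 1.31. Where a share of cells is given with an interval, it is the exact Clopper-Pearson 95% interval, which covers counting error only.

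At 5 days 2 pairs of libraries were far more alike than any others. Over all genes, the log2(CPM + 1) values of libraries 21 and 22 correlated at r = 0.994, and those of libraries 13 and 15 at r = 0.960. The next pair, libraries 42 and 48, reached 0.640, and the median of the 7021 pairs of Neurog1-eGFP libraries was 0.409. Of 1426 genes with 200 or more fragments in libraries 21 and 22 together, 99.9% lay within 2-fold. Only 1 gene had at least 10 fragments in 1 of these 2 libraries and 0 in the other. For libraries 13 and 15, 79.9% of 1384 genes lay within 2-fold, and 15 and 63 genes had at least 10 fragments in 1 library and 0 in the other. Whether a pair stands for 1 cell was not tested. All 4 were kept as labelled, and values with each pair averaged, which leaves 46 libraries at 5 days, are given where they matter.

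**Figure D1:**
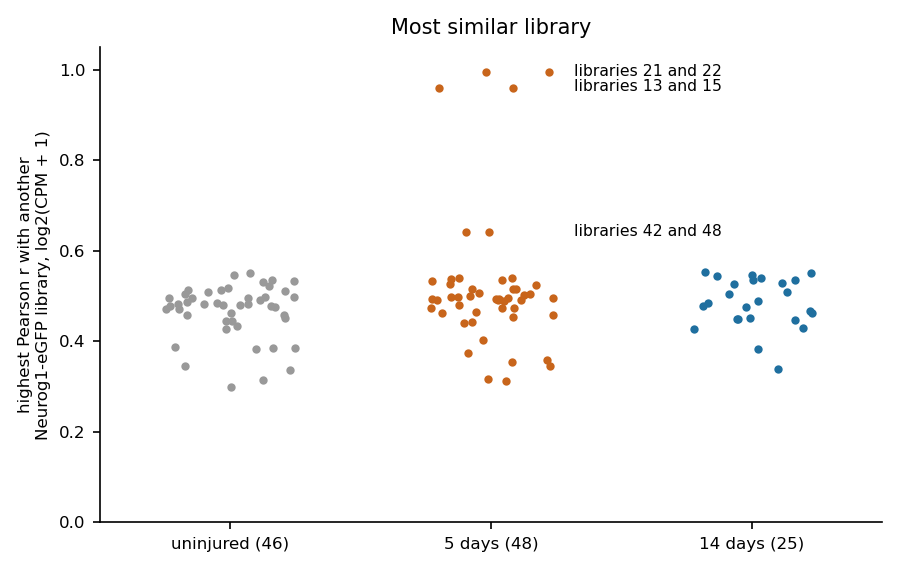
Highest Pearson correlation of each kept library with any other Neurog1-eGFP library, computed over all genes on log2(CPM + 1), for uninjured, 5 day and 14 day libraries (1 point per library). The points of libraries 21 and 22 (0.994) and of 13 and 15 (0.960) stand above all others, the next of which reach 0.640.

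Transcripts of late precursors and immature neurons were present at both times. Neurog1 was found in 12 of 25 cells at 14 days (48%, interval 27.8 to 68.7%) and in 18 of 48 at 5 days (37.5%, 23.95 to 52.6%). Gap43 was found in 18 of 25 cells (72%, 50.6 to 87.9%) and in 35 of 48 (72.9%, 58.2 to 84.7%). Sox11, a transcription factor of young neurons, was found in all 25 and all 48 cells, at mean CPM of 7958 and 7669.

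Omp was found in 8 of 25 cells at 14 days (32%) and in 17 of 48 at 5 days (35.4%). All of these intervals overlapped between the days, so no shift in the stage of the sorted cells was detectable with these numbers of cells.

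Odorant receptor genes gave the same picture. A receptor at 50 CPM or more was present in 19 of the 25 cells of 14 days (76%) and 36 of the 48 of 5 days (75%). The most abundant receptor was a different gene in nearly every cell, with 18 distinct receptors in the 19 cells and 34 in the 36. At least 90% of the receptor CPM came from 1 receptor in 12 cells at 14 days and 20 cells at 5 days.

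Cells of another type were present at 5 days. Libraries 16 and 44 held 11 and 10 of the 11 listed markers of sustentacular cells, the non-neuronal supporting cells of the epithelium, with summed marker CPM of 57876 and 39762, and held no Neurog1, Gap43 or Omp. Library 44 also held Neurod1 at 434.6 CPM and Tex15 at 625, and whether it holds more than 1 cell was not tested. Together they carried 94.5% of the sustentacular signal of the 48 cells. At 14 days no library held more than 5 of these markers, and the highest sum was 1518. All 10 markers of immune cells were at 0 in every cell of both groups. A transcript from the Y chromosome was found in 76% of cells at 14 days and 91.7% at 5 days, and Xist in 0 of 25 and 2 of 48. At 5 days 44 cells held a Y-linked transcript and 42 held one without Xist, so the 2 cells with Xist held both. Whether those libraries hold more than 1 cell was not tested. No marker of horizontal basal cells, ensheathing glia or erythroid cells reached a mean CPM of 5 in either group.

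**Figure D2:**
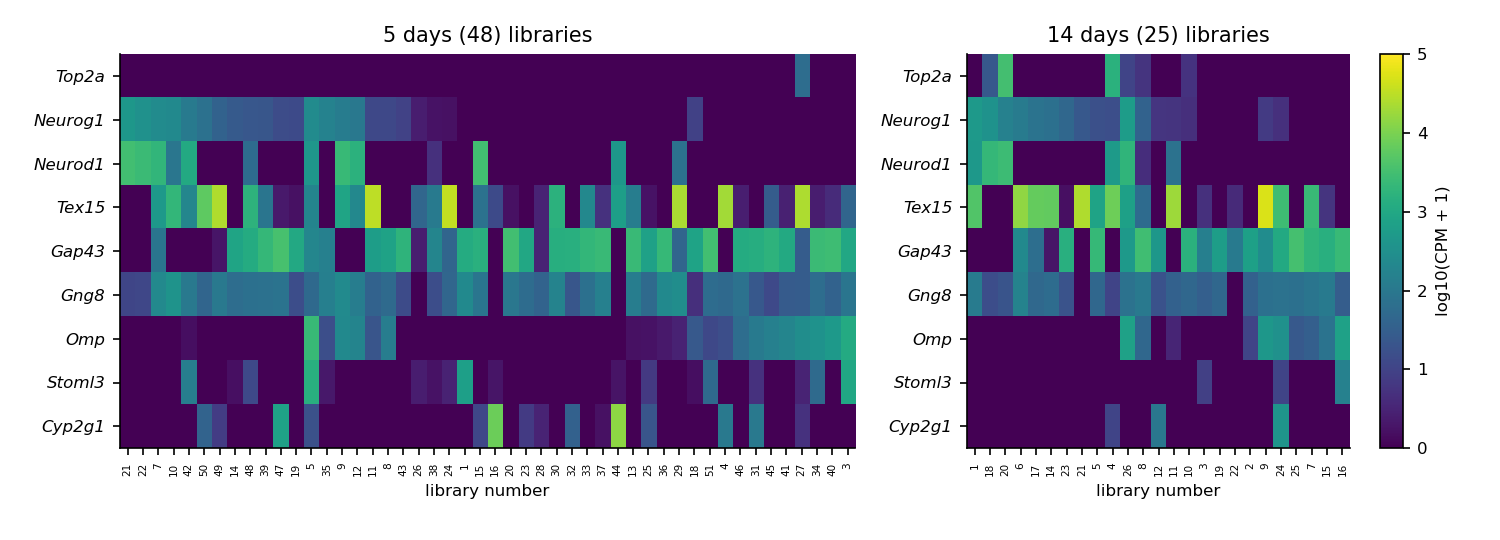
Level of 9 marker genes, as log10(CPM + 1), in each of the 48 libraries at 5 days and 25 libraries at 14 days, with libraries ordered by Neurog1 and Omp and numbered as in the text. Gap43 and Gng8 fill most columns of both panels, while Cyp2g1, a sustentacular marker, is brightest in libraries 16 and 44.

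A gene was called measured where the mean CPM of 1 of the groups reached 5. Of the 9844 measured genes 48.9% were higher at 14 days by any amount, 2345 (23.8%) by 2-fold or more, while 2665 (27.1%) were lower by 2-fold or more, and the median log2 ratio was -0.03. Ratios are given as log2 of (mean CPM + 1) at 14 days over 5 days, which understates the difference of low genes. Single cells held much of the signal: in the median gene, 1 cell held 52.5% of the summed CPM at 14 days and 39.8% at 5 days. Without each gene's highest cell per group, the 2-fold shares were 16% higher and 31.2% lower. A second description was therefore used, the share of cells in which a gene was found. For the 6883 genes whose mean reached 20 CPM, the share intervals of 15 (0.218%) did not overlap with a mean difference in the same direction, 10 of them (0.145%) higher and 5 (0.0726%) lower at 14 days. These 15 genes are described first.

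**Figure D3:**
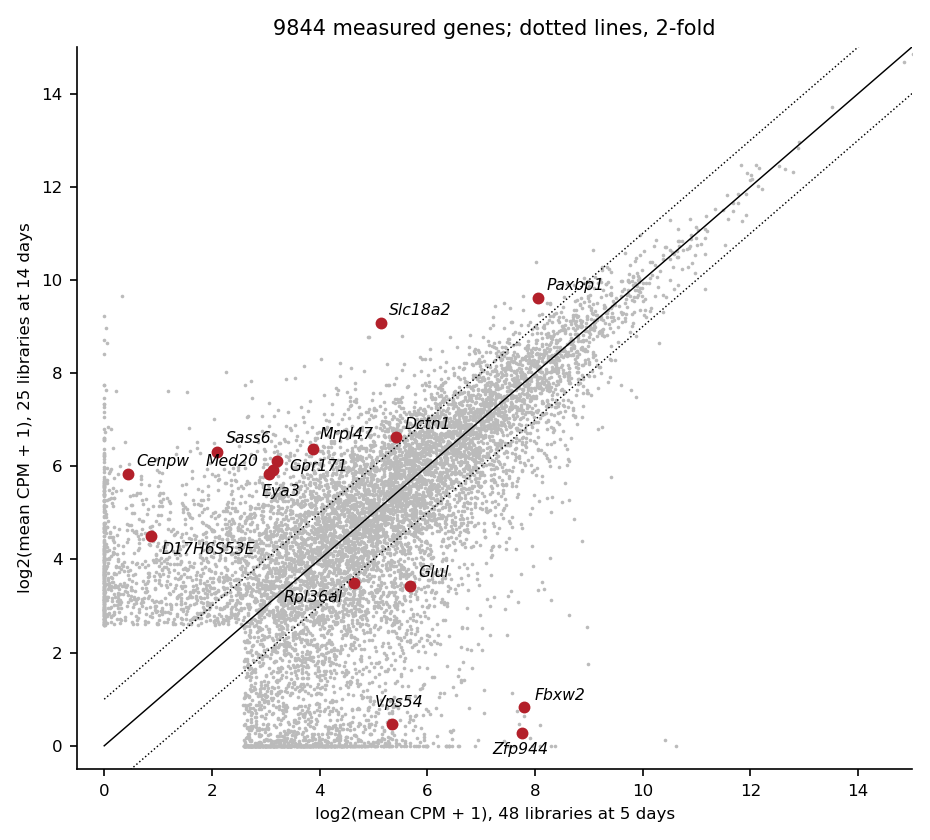
Mean level of each of the 9844 measured genes at 5 days (x axis) and at 14 days (y axis), both as log2(mean CPM + 1), with dotted lines at 2-fold. The 15 labelled genes are those whose shares of cells had intervals that did not overlap; Paxbp1 is the most abundant of them, and Zfp944 and Fbxw2 lie near 0 at 14 days.

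Paxbp1, which encodes a protein that links Pax3 and Pax7 to histone methyltransferases, showed the difference in the largest number of cells. Its CPM at 5 days ran from 0 to 2786 with a median of 1.30, and at 14 days from 0 to 1708 with a median of 775. It was found in 19 of 48 cells at 5 days (39.6%, 25.8 to 54.7%) and in 22 of 25 at 14 days (88%, 68.8 to 97.5%). The ranges overlapped fully, but most 14 day cells lay at levels that most 5 day cells did not reach.

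Mean CPM of Paxbp1 was 265.6 at 5 days and 782 at 14 days, a log2 ratio of 1.55, and 1.80 without the highest cells. Counts by stage were smaller, and their intervals overlapped. Among Neurog1 positive cells 6 of 18 held Paxbp1 at 5 days (13.3 to 59.01%) against 10 of 12 at 14 days (51.6 to 97.9%). Among Gap43 positive cells without Neurog1 the counts were 12 of 25 (27.8 to 68.7%) and 11 of 12 (61.5 to 99.8%), and among all Gap43 positive cells 17 of 35 (31.4 to 66.01%) and 16 of 18 (65.3 to 98.6%). In every other alternative setting that changed the cells or the table, some of them with fewer cells, the intervals of Paxbp1 were apart. Settings that changed only the pseudocount, the mean filter, the highest cells in the mean or the pooling of fragments kept its share counts. The outcome of those settings was therefore fixed. In uninjured epithelium Paxbp1 was found in 20 of 46 cells at a mean of 315.4, close to the 5 day values. With the like libraries averaged, Paxbp1 was found in 19 of 46 cells at 5 days.

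Sass6 was at 0 or below 10 CPM in all but 2 cells at 5 days, where the highest value was 106.9, and was found in 8 of 25 cells at 14 days at 45.04 to 428.8. The shares were 4.17% (0.509 to 14.3%) and 32% (14.9 to 53.5%). Mean CPM was 3.30 and 78.4, a log2 ratio of 4.21. The 14 day value came from 2364 fragments (Poisson interval 2270 to 2461, which leaves out the spread between cells). In 10 of 14 alternative settings the share intervals of Sass6 were also apart. They overlapped in cells with Gap43 (4 of 18 against 1 of 35), without cells with 3 or more sustentacular markers (7 of 24 against 2 of 42), without cells holding a division gene (7 of 21 against 2 of 45) and in cells with a Y-linked gene and no Xist (6 of 19 against 2 of 42). As for Paxbp1, settings that kept the share counts could not differ from the main one. No single cell made the mean of Sass6 at 14 days, since the highest of them held 21.9% of it. In the uninjured sort 7 of 46 cells held it (15.2%), at a mean of 37.4.

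The Sass6 cells were of several kinds. At 14 days 4 of the 8 also held Neurog1, and in uninjured epithelium 7 of 7 did. Only 1 of the 8, library 20, held a transcript of the division genes Top2a, Mki67 or Cdk1. The cell with the most Omp at 14 days, library 16, was among the 8, at 45.04 CPM.

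Cenpw, a component of the inner kinetochore, was found in 1 of 48 cells at 5 days (2.08%, 0.0527 to 11.1%), at 17.1 CPM, and in 7 of 25 at 14 days (28%, 12.1 to 49.4%), at 17.7 to 622. Its mean CPM was 0.357 at 5 days and 55.7 at 14 days, a log2 ratio of 5.38, and 0.486 in uninjured epithelium. Libraries 2 and 20 held most of it, at 622 and 580. Of the 7 cells, 3 held Top2a, Mki67 or Cdk1 and 1 held Sass6. Whether Cenpw and Sass6 tend to lie in separate cells was not tested, and these counts are too small to tell.

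Slc18a2, the vesicular transporter that loads monoamines into synaptic vesicles, was found in 7 of 25 cells at 14 days, at 15.5 to 4017 CPM, and in 1 of 48 at 5 days, at 1625. Its mean CPM was 536 against 34.04, a log2 ratio of 3.94. The 1 cell held 99.5% of the 5 day sum, the ratio was 8.36 without the highest cells and 2.90 on pooled fragments, and the share intervals overlapped in 5 of 14 alternative settings. Here too, settings that kept the share counts could not differ. Of the 7 cells 4 held Neurog1 and 2 held Sass6. In uninjured epithelium 5 of 46 cells held Slc18a2, at a mean of 280, so the 5 day value was the low one of the 3 groups.

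The other genes found in more cells at 14 days lay at moderate levels. Mrpl47, of the large subunit of the mitochondrial ribosome, was found in 12 of 25 cells against 5 of 48, at mean CPM of 81.6 and 13.8. Its uninjured mean was 73.2, close to the 14 day value. Eya3, a transcriptional cofactor with phosphatase activity, was found in 11 against 5 cells, at 56.4 and 7.39, and at 19.5 in the uninjured sort. Gpr171, a G protein-coupled receptor, was found in 9 against 3 cells, at 68.5 and 8.25, and reached 245.6 in the uninjured sort.

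Med20, a subunit of the Mediator complex, was found in 8 of 25 against 2 of 48 cells, at mean CPM of 59.8 and 7.74. In the uninjured sort its mean was 81.9, above both. D17H6S53E was found in 7 against 1, at 21.8 and 0.837, and at 2.50 in the uninjured sort. Dctn1, the large subunit of dynactin, which couples dynein to its cargo, was found in 20 of 25 cells (80%) against 19 of 48 (39.6%). Its medians were 60.9 and 4.76 CPM, and 10.7 in the uninjured sort. Dctn1 and Paxbp1 were thus the genes of this group that most 14 day cells held, while each of the others was found in 12 or fewer of the 25.

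Glul was lower at 14 days. Its CPM at 5 days ran from 0 to 460 with a median of 11.6, and at 14 days from 0 to 123.9 with a median of 0. The share of cells was 25 of 48 at 5 days (52.1%, 37.2 to 66.7%), 4 of 25 at 14 days (16%, 4.54 to 36.1%) and 25 of 46 in uninjured epithelium (54.3%). At 14 days 1 cell, library 5, lay above 100 and the rest at or below 57.1.

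The mean CPM of Glul was 50.4 at 5 days, 9.86 at 14 days and 46.9 in uninjured epithelium, a log2 ratio of 14 over 5 days of -2.24. Among Neurog1 positive cells 10 of 18 held it at 5 days (30.8 to 78.5%) against 1 of 12 at 14 days (0.211 to 38.5%). Among Gap43 positive cells without Neurog1 the counts were 12 of 25 and 3 of 12, and both pairs of intervals overlapped. In 5 alternative settings, each with a subset of the cells, the share intervals of Glul overlapped. Without cells with 3 or more sustentacular markers it was found in 4 of 24 cells at 14 days (16.7%, 4.74 to 37.4%) and 22 of 42 at 5 days (52.4%, 36.42 to 67.996%). The other 4 settings were 2000 or more genes per cell, cells with Gap43, cells with a Y-linked gene and no Xist, and cells without a division gene. The intervals stayed apart on the FPKM table, with like libraries averaged and without libraries 16 and 44. As for Paxbp1, settings that kept the share counts could not differ. Libraries 16 and 44 held Glul at 0 and 12.6 CPM. At a threshold of 1 CPM the shares of Glul were 48% at 14 days and 68.8% at 5 days, closer to each other than at 10 CPM.

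Fbxw2, Zfp944 and Vps54 were found in 0 of the 25 cells at 14 days, a count that allows a share of 12% as 3 cells over n and of 13.7% as the upper bound of the exact interval. Fbxw2, the substrate receptor of a ubiquitin ligase, was found in 16 of 48 cells at 5 days (33.3%, 20.4 to 48.4%), at 25.0 to 2588 CPM, and reached at most 7.69 at 14 days. Its mean CPM was 220 against 0.793, from 10128 fragments against 14. In uninjured epithelium it was found in 13 of 46 cells, at a mean of 75.6.

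Vps54, of the complex that tethers vesicles returning from endosomes to the Golgi, was found in 14 of 48 cells at 5 days, at a mean of 39.5 CPM against 0.388 at 14 days. Zfp944, a zinc finger gene, was found in 13 of 48, at 214.3 against 0.202, but 1 cell with 6255 CPM held 60.8% of its sum. Zinc finger genes have close relatives, and how fragments were shared among them is not given in the sources used here. Rpl36al, a ribosomal protein gene with near-identical copies, was found in 27 of 48 cells at 5 days and 4 of 25 at 14 days, at means of 24.02 and 10.2, and is uncertain for that reason.

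**Figure D4:**
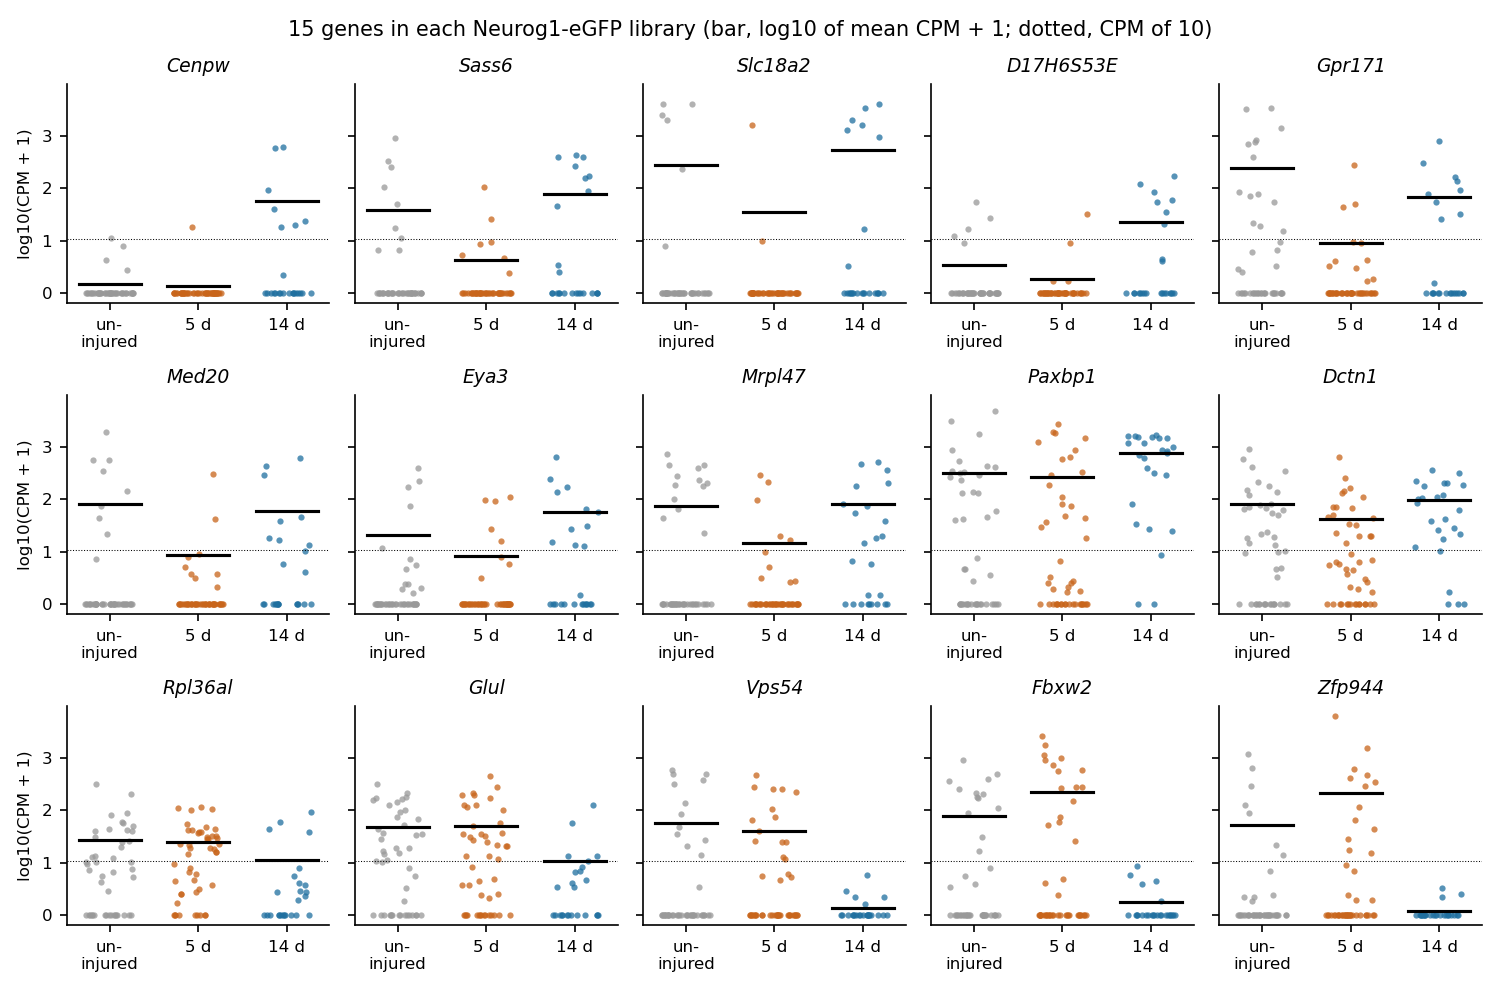
Level of the 15 genes, as log10(CPM + 1), in each kept library of the uninjured, 5 day and 14 day Neurog1-eGFP sorts (1 point per library; bar, log10 of the group's mean CPM + 1; dotted line, the 10 CPM at which a gene was counted as found). Paxbp1 and Dctn1 fill most 14 day libraries, Sass6 and Cenpw appear in 8 and 7 of them, and no 14 day library of Fbxw2, Vps54 or Zfp944 reaches the dotted line.

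The rest of the 42 named genes were taken for large ratios without the highest cells or for large differences of share. Among those higher at 14 days, Tfrc, the transferrin receptor, had mean CPM of 445.2 against 45.02 and was found in 6 of 25 against 4 of 48 cells. Sirt6, a nuclear deacetylase, was found in 22 of 25 against 27 of 48 cells, with medians of 43.4 and 12.4 CPM. Ppp6c, the catalytic subunit of protein phosphatase 6, had means of 133.8 against 6.65.

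Among those lower at 14 days, Nxf1, the main exporter of messenger RNA, was found in 3 of 25 against 21 of 48 cells, at mean CPM of 8.20 and 150.6. Gdap1, of the mitochondrial outer membrane, was found in 6 of 25 against 27 of 48 cells, at 107.2 and 363.9. Agtpbp1, which removes glutamates from tubulin, was found in 5 of 25 against 25 of 48 cells, at 29.9 and 152.4. For 2 of the named genes, Csrnp2 and Tnrc6b, the share and the mean differed in opposite directions. Csrnp2 was found in 7 of 25 against 28 of 48 cells, at means of 214.9 and 203.3, and 1 cell at 14 days held 57.2% of the sum. Tnrc6b, of the microRNA silencing machinery, was found in 80% against 47.9% of cells, at means of 125.6 and 135.6.

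Genes of G2 and M phase, the part of the cell cycle around mitosis, had the highest median ratio of the gene lists. Of 20 listed, 18 were measured, 17 were higher at 14 days and 16 by at least 2-fold, against 23.8% of all measured genes. The median log2 ratio was 4.18, and 2.60 without the highest cells. It was 4.47 with the 5 genes listed at 0 in all 48 cells at 5 days set to the limit of 3 fragments over the group. Top2a, the topoisomerase that untangles replicated DNA, had a mean CPM of 195.9 against 1.27. Cenpf, a kinetochore protein, had 261.01 against 3.77. Cdk1, Ccnb1 and Ccnb2, the mitotic kinase and its cyclins, had 17.6, 48.5 and 37.1 and were listed at 0 in every cell at 5 days.

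These values rested on 3 cells. Libraries 20, 18 and 4 had summed CPM of the list of 10707, 7747 and 5406 and held 97.1% of it at 14 days. The first 2 held 17 and 18 of its 20 genes, while library 4 held 4, with Mki67 and Cdk1 at 0. All 3 also held Neurog1 and none held Gap43. At 5 days libraries 21 and 22, the pair with nearly the same profile, held 77.04% of the list with 1613 and 1872 CPM, mostly Mki67, a marker of cycling cells, at 1001 and 1353.

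Top2a, Mki67 or Cdk1 was found in 4 of 25 cells at 14 days (16%, 4.54 to 36.1%), in 3 of 48 at 5 days (6.25%, 1.31 to 17.2%) and in 1 of 46 uninjured cells (2.17%, 0.0550 to 11.5%). The intervals overlapped, and 2 of the 3 cells at 5 days are the like libraries 21 and 22. The higher G2 and M levels were thus a feature of 3 cells, of which only libraries 20 and 18 held most genes of the list. No difference in the share of dividing cells was detectable. Without the cells that held any of these 3 genes the median of the list was 0.40.

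The promoters of 4 of these genes, and of Cenpw and Sass6, are shown for their sequence only. These genes were not all high in the same cells. In libraries 20, 18 and 4 Top2a lay at 3273, 22.8 and 1583 CPM, and Sass6 at 428.8, 1.55 and 0. Each sequence is the 250 bases before the RefSeq gene start (build GRCm38.p6), 5′ to 3′ on the gene's strand, with 2 motifs in capitals: CCAAT, the CCAAT box (ATTGG on the other strand), and TTTGAA, which matches the core of the cell cycle homology element (TTCAAA on the other strand). The regions are chr11:99024190-99024439 for Top2a, chr9:70421555-70421804 for Ccnb2, chr1:189688087-189688336 for Cenpf, chr10:69352913-69353162 for Cdk1 and chr10:30200541-30200790 for Cenpw, all on the minus strand, and chr3:116594708-116594957 for Sass6 on the plus strand.
Top2a: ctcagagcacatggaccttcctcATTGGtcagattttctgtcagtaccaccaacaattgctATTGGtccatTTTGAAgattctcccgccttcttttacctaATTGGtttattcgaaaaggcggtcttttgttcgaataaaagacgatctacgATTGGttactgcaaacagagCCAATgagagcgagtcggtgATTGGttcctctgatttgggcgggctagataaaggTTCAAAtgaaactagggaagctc
Ccnb2: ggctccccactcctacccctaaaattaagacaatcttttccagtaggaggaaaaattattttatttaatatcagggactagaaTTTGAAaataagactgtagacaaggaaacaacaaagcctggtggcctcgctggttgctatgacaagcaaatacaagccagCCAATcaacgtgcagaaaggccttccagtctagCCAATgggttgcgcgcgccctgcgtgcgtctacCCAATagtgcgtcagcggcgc
Cenpf: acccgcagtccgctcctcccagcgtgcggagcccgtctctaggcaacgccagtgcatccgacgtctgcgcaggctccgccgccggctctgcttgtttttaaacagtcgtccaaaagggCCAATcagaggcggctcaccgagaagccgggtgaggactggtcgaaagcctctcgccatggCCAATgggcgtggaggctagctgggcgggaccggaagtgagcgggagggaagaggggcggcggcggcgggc
Cdk1: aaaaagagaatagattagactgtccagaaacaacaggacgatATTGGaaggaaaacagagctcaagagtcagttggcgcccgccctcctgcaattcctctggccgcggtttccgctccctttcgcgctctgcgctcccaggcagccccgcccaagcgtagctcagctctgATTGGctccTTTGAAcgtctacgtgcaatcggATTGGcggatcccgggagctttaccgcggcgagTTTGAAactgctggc
Cenpw: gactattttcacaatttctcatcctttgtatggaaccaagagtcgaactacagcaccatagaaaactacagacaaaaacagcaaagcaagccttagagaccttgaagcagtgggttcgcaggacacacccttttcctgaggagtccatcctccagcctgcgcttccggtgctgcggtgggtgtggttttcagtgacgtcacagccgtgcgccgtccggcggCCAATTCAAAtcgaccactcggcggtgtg
Sass6: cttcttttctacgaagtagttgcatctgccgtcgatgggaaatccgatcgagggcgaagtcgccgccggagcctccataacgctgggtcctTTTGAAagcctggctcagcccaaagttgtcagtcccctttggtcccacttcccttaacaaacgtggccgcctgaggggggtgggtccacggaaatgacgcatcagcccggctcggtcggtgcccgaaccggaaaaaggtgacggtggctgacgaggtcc
Top2a has 6 CCAAT matches in this window, Ccnb2 and Cdk1 have 3 each, Cenpf has 2 and Cenpw has 1, which overlaps its TTTGAA match by 1 base. Sass6 has 0 CCAAT and 1 TTTGAA match. Of the 20 G2 and M genes 16 matched an entry, and 14 of these (87.5%) held CCAAT on either strand, against 34.5% of all 27025 genes with an entry. The S phase list had CCAAT nearly as often, in 12 of 16 matched genes (75%). TTTGAA was present in 7 of the 16 G2 and M genes (43.8%) and 1 of the 16 S phase genes (6.25%), against 16.3% of all. Of 7373 measured genes with an entry, 37.2% held CCAAT and 10.3% TTTGAA. Of 22 matched centriole duplication genes, 9 (40.9%) held CCAAT and 1 (4.55%) TTTGAA. A match describes the letters only.

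Of 20 S phase genes 12 were measured, 8 of them higher and 4 lower at 14 days, with a median of 0.87. By 2-fold or more, 4 were higher and 4 lower, against 23.8% and 27.1% of all measured genes. Mcm4, of the replicative helicase, had mean CPM of 43.5 at 14 days and 121.4 at 5 days, and Pcna, the sliding clamp, 27.2 and 79.1. Mcm7, also of the helicase, had 51.2 and 25.5.

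Of the centriole duplication genes, 24 of 28 were measured, 14 were higher and 10 lower, with a median of 0.23, and Sass6 was the only one whose share intervals did not overlap. Plk4, the kinase that acts upstream of Sass6, had mean CPM of 415.4 at 14 days and 346.5 at 5 days, with shares of 52% and 35.4% of cells. Stil, which binds both proteins, had 110.9 and 224.9. Ccp110, which caps the centriole end, had 1144 and 678, and Cep120 had 348.4 and 135.2. The partners of Sass6 therefore lay on both sides of 0.

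The genes of glutamine, glutamate and ammonia metabolism were likewise mixed, with 13 of 20 measured genes higher, 7 lower and a median of 0.36. Glul was the only one with intervals apart. Slc38a1, a glutamine transporter, had mean CPM of 68.9 at 14 days and 232.3 at 5 days, although its share was higher at 14 days, 56% against 33.3%. Slc1a4, a neutral amino acid transporter, had 11.7 and 144.8, with 73.9% of the 5 day sum in 1 cell.

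Lists of the neuronal lineage lay close to the median of all genes. Among immediate neuronal precursor markers 6 of 9 measured genes were higher, with a median of 0.22. Of these 9 genes 0 differed by 2-fold, against 23.8% higher and 27.1% lower of all measured genes. Neurog1 had mean CPM of 80.2 at 14 days and 47.3 at 5 days, and Insm1, a zinc finger factor of delaminating progenitors, had 242.9 and 122.96. The 12 immature neuron markers had a median of -0.12, with Gap43 at 850 and 988 and Crmp1, a growth cone protein, at 198.8 and 59.9.

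The 12 measured mature neuron markers had a median of -0.0010, and -0.57 without the highest cells. Stoml3, a mature neuron membrane protein, was found in 1 of 25 cells at 14 days and 7 of 48 at 5 days, at mean CPM of 7.02 and 68.7, against 734 in uninjured epithelium. Omp had 96.9 and 118.2, against 854. Both injured groups were thus below the uninjured sort in these 2 transcripts.

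Of 7 measured globose basal cell markers 6 were higher, with a median of 0.81. Ezh2, the histone methyltransferase of Polycomb, was found in 76% of cells at 14 days and 54.2% at 5 days, at mean CPM of 504 and 255.01. Cxcr4, a chemokine receptor, was found in 60% and 39.6%, at 132.02 and 80.7. The share intervals of both genes overlapped between the days.

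The lists of 2 further groups were low at 14 days in the presence of the sustentacular-rich libraries of 5 days, whose part was measured by leaving them out. All 9 measured sustentacular markers were lower, with a median of -4.44, and Cyp2g1, a cytochrome P450 of these cells, had mean CPM of 19.9 against 470. Without libraries 16 and 44 the median was 0.58. All 13 immediate early genes, induced within minutes of stimulation, were lower, with a median of -1.75, but library 16 alone held 55.3% of their sum at 5 days, and without libraries 16 and 44 the median was -0.04. The other cell type lists had few measured genes. The median was 3.44 over 2 genes of Bowman glands (0.98 without the highest cells), 2.62 over 2 of microvillar cells (-0.16 without them) and 0.59 over 4 of respiratory ciliated cells. It was -2.21 over 2 genes of endothelial cells and pericytes, but 1.01 without libraries 16 and 44, and -6.40 for the 1 of fibroblasts. Dusp1, a phosphatase of the immediate early list found in 40% and 50% of cells, had 58.5 and 190.

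**Figure D5:**
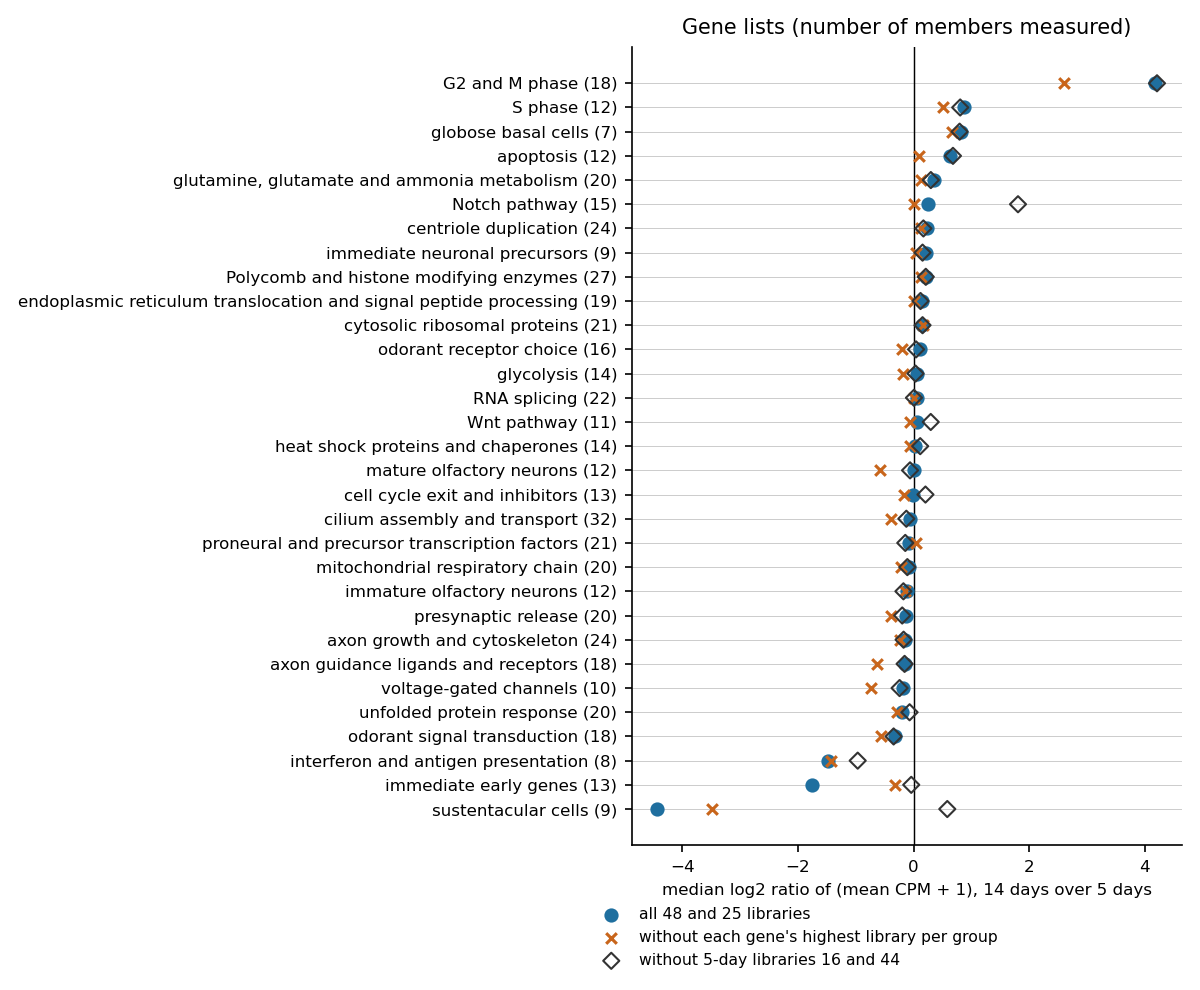
Median log2 ratio of (mean CPM + 1), 14 days over 5 days, of each gene list with 5 or more measured members (number in brackets), for all libraries (filled circles), without each gene's highest library per group (crosses) and without the sustentacular-rich libraries 16 and 44 (open diamonds). The G2 and M list stands at 4.18 and the sustentacular list at -4.44, which moves to 0.58 without the 2 libraries, while most other lists lie near 0.

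Interferon and antigen presentation genes had a median of -1.47 over 8 measured members, 6 of them lower. B2m, the light chain of class I molecules, was found in 12% of cells at 14 days and 41.7% at 5 days, at mean CPM of 27.6 and 42.4. The share intervals of B2m overlapped between the days. Of 12 measured apoptosis genes 9 were higher, with a median of 0.62, and Bcl2l1, which encodes the survival protein Bcl-xL, had 656 and 424.3. That median was 0.09 without the highest cells.

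The Notch list was split, with 6 of 15 measured genes higher and 4 lower by 2-fold or more. The shares over all measured genes were 23.8% and 27.1%. The Notch list had a median of 0.25. The median was 0 without the highest cells and 1.81 without libraries 16 and 44. Notch2 and Hes1, a receptor and a target of the pathway that the sustentacular list also holds, had mean CPM of 0.757 and 0.562 at 14 days and of 37.1 and 11.9 at 5 days, where 1 cell held 64.2% and 96.4%. Notch1 was found in 12% of cells at 14 days, at 17.9, and was listed at 0 in all cells at 5 days. Maml2, a Notch coactivator, had 261.8 and 78.9.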

How the data were processed

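Single-cell RNA of Neurog1-eGFP sorted cells was analysed from 2 tables with 1 column per cell, at 14 and 5 days after bulbectomy. The first, as deposited, holds signal, which here means fragments per gene scaled by the authors to nearly the same column sum (610379 to 638668 in the kept libraries). The other deposited table gives each cell's FPKM, used as an alternative. The tools listed in the submitters' processing notes are Cuffnorm, Cufflinks 2.2.1, STAR 2.5.2a and FastQC, and the build is mm9. The sources used here do not give which step each tool did, nor the annotation. The Nextera XT kit named in the labels' protocols does not mark strand, so overlapping genes cannot be told apart.

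Of 23308 gene entries, 27 with names altered into dates (0.418% of the signal) were left out. Signal was divided by the column sum to give CPM, with Python 3.11.15, numpy 2.4.6, pandas 2.3.3 and scipy 1.17.1. In the kept columns, among values of about 1 to 50 steps, a median of 98.6% (lowest 97.5%) were whole multiples of 1 step. The tolerance was 0.02 steps, and smaller and larger values were not counted. Fragments were recovered from that step, which was tested on simulated whole counts only. Shares used the exact Clopper-Pearson 95% interval, and a share of 0 a limit of 3 cells over n. No doublet caller was run. No p-value was computed, since each group is 1 sample.

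The genes named were those with share intervals apart and a mean CPM of 20 or more in the same direction, the 12 highest and 12 lowest log2 ratios without each group's highest cell (mean CPM of 50 or more, found in 20% or more of cells), the 8 largest share differences each way, Sass6, Glul and the members of the lists with the highest levels. Examples outside this rule, such as Stoml3, B2m and the genes of the Notch list, were chosen after their values were seen. Olfr, Gm, Rik and mitochondrial names were left out of the ratio and share rankings. The comparison, the 40 gene lists and the rules were chosen with earlier results of these data known. Promoter sequences are from RefSeq, build GRCm38.p6, matched by symbol. The 14 alternatives to the main settings included 2 added after the libraries were seen, averaging the like libraries and leaving out those with 10 or more sustentacular markers. Shares were also computed at 1 and 50 CPM and with each cell thinned to 200000 fragments (1 cell at 14 days left out), where the median number of genes was 2576.5 at 14 days and 2696 at 5 days. Some genes are not reported here.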

Additional observations from a re-analysis of the deposited data

How the results depend on the processing

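Of the counts of genes at least 2-fold higher and lower (2345 and 2665), a pseudocount of 10 gave 1470 and 1658. A mean CPM of 20 or more gave 1534 and 1566 of 6883 genes (22.3% and 22.8%, against 23.8% and 27.1%). Leaving out the highest cell of each group before the filter on the mean gave 1274 higher of 7489 genes (17.01%), against 16% of the 9844 genes of the filter with all cells. The genes with share intervals apart numbered 10 to 20 over the alternatives, against 15. Of those 15, all were kept with like libraries averaged or the sustentacular-rich libraries left out, 10 with the FPKM table (the same cells), and, with fewer cells, 10 with 2000 or more genes per cell, 9 without cells holding Top2a, Mki67 or Cdk1, 6 without cells with 3 or more sustentacular markers, 5 in cells with a Y-linked gene and no Xist, and 2 in Gap43 positive cells. Without cells with 3 or more sustentacular markers, in Gap43 positive cells, and without libraries 16 and 44, the sustentacular median changed sign to 0.090, 1.51 and 0.58, and that of 2 endothelial and pericyte genes from -2.21 to 0.86, 1.03 and 1.01. The median of 2 microvillar genes went from 2.62 to -0.33 without the highest cells, and Cyp2g1 from -4.49 to 0.032 in Gap43 positive cells. The cause was not tested beyond the cells left out. Over these settings 89.2% of list medians and 83.2% of the ratios of named genes stayed within 1.5-fold. The 83.2% includes the 2 filters on the mean, which cannot change a gene's own ratio and left all 42 as they were. The G2 and M median ranged from 0.40 to 6.03 and stayed above 0. No paired analysis was possible because the result comes from no test and the labels give no shared replicate. Thinned to 200000 fragments per cell, Sass6 was found in 33.3% of cells at 14 days and 8.33% at 5 days, and Glul in 16.7% and 50%. With 24 thinned cells at 14 days and 48 at 5 days, the share intervals of both genes overlapped. The number of cells and the unknown number of animals limit every comparison.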

Other observations

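Other lists gave values not described above. Of 21 measured ribosomal protein genes 17 were higher at 14 days, with a median log2 ratio of 0.14, and 1 was at least 2-fold lower. Of 27 measured Polycomb and histone modifying genes 18 were higher, with a median of 0.22. Odorant signal transduction had 5 of 18 measured genes higher and a median of -0.32, and presynaptic release 6 of 20 and -0.14. Cilium assembly and transport had 15 of 32 higher, 7 at least 2-fold lower and a median of -0.06. Axon growth and cytoskeleton had 8 of 24 higher and a median of -0.14. Over all genes measured 48.9% were higher by any amount and the median was -0.03. By 2-fold or more, 23.8% were higher and 27.1% lower.

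Of the like pairs of libraries at 5 days, 13 and 15 differed in a lineage gene. Both carried Olfr66 as the most abundant receptor, at 678 and 245.8 CPM, and Gap43 at 2463 and 1514. Neurod1 was at 0 in library 13 and at 3047 CPM in library 15.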
